A study of Mus musculus with 7 samples.

Results

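Retinoic acid receptors and retinoid metabolism were followed in mouse esophageal epithelial cell lines through 9 genes, taken by symbol from a table of 24047 names, 92 of them spike-in controls. The genes were the receptors Rara, Rarb, Rarg and Rxra, the binding proteins Crabp1 and Crabp2, and the enzymes Dhrs3, Cyp26b1 and Aldh1a3, and all 9 passed the expression filter. The study compared 3 lines with the missense allele p53R172H and the label 4NQO (mutant), 2 lines labelled p53 -/- and 4NQO (null, numbered 1 and 3), and 2 wild-type lines with no treatment label (WT). 4NQO is the short name of 4-nitroquinoline 1-oxide, a carcinogen used to induce esophageal tumours in mice. All lines had a mixed strain background and were grown on plastic in keratinocyte serum-free medium. The labels do not say whether lines came from separate animals, so a p-value here reflects only how far these lines differ, which may be technical, and p53 genotype and the 4NQO label cannot be told apart against WT. How the 4NQO was given, and how the p53 alleles were placed, is not stated in the labels.

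Vitamin A (retinol) is oxidised first to retinal and then, by aldehyde dehydrogenases of the Aldh1a family, to retinoic acid. Retinoic acid enters the nucleus with Crabp2, where it binds heterodimers of a retinoic acid receptor (RAR) and a retinoid X receptor (RXR) on DNA, whereas Crabp1 holds it in the cytoplasm and Cyp26 enzymes oxidise it for removal. In stratified squamous epithelia, the tissue type that lines the mouse esophagus, vitamin A status is known to control keratinization.

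Total counts were 41325469 to 47000225 in mutant, 25469853 and 33598210 in null, and 12751118 and 31283848 in WT libraries. Trp53, which encodes p53, stood at 171.6 to 253.9 CPM (CPM are counts scaled to one common library size, with TMM factors for composition) in mutant, 8.73 and 4.71 CPM in null 1 and 3, and 211.6 and 192.7 CPM in WT libraries. All 8 markers of squamous or basal epithelium, among them Krt5, Krt14 and Trp63, were detected in every library. Their summed level was 8196 to 11820 CPM in mutant, 10000 and 6493 CPM in null, and 27750 and 38360 CPM in WT libraries. Krt5 and Krt14 made up most of this sum. Itga6 stood higher in every mutant library (1083, 1870 and 1269 CPM) than in WT libraries (810.7 and 943.6 CPM). Epcam stood lower in every mutant library (175.2, 70.05 and 55.04 CPM) than in WT libraries (453.7 and 385.6 CPM). Cdh1 did so too (475.6, 289.2 and 444.8 CPM against 930.8 and 690.9 CPM). Krt15, Trp63 and Sox2 overlapped between mutant and WT. In null libraries Itga6 was below WT, while Epcam and Cdh1 overlapped WT. Of 10 fibroblast markers, the summed level was 861.6 and 376.1 CPM in mutant 1 and mutant 3 but 9.78 CPM in mutant 2, 481.2 CPM in null 3 but 8.22 CPM in null 1, and 5.75 and 8.61 CPM in WT 1 and WT 2. Of these 10 genes, 8, 2 and 6 were above 1 CPM in mutant 1, 2 and 3, 2 and 8 in null 1 and 3, and 1 and 4 in WT 1 and 2. The fibroblast markers did not move as one. Col3a1 was high in mutant 1, mutant 3 and null 3 (148.2, 182.9 and 276.3 CPM). In the same libraries Col1a2 was at 326.4, 1.514 and 10.06 CPM, and Postn at 292.7, 0.1147 and 58.01 CPM. Lum and Thy1 were below 1 CPM in every library. Whether fibroblasts were present was not tested. The summed level of 8 muscle markers was 167.3 to 814.2 CPM in mutant, 29.3 and 441.8 CPM in null 1 and 3, and 151.9 and 280.3 CPM in WT libraries. Acta2 made up most of this sum in every library, and nearly all of it in WT (151.1 and 278.9 CPM). Null 3 alone had Myog at 29.04 CPM and Des at 26.01 CPM, against at most 0.122 and 0.568 CPM in any other library. Summed levels over all libraries were 22.7 to 91.8 CPM for 6 leukocyte markers, nearly all of it Cd68, 0.408 to 2.05 CPM for 5 endothelial, 2.56 to 17.5 CPM for 5 Schwann cell or neuron (Tubb3 alone 1.83 to 15.35 CPM), and 1.95 to 9.49 CPM for 4 melanocyte markers, mostly Mitf. In each of these 4 lists 1 gene was at 0 in every library (Cd3e, Emcn, Sox10 and Dct). These libraries are whole cultures, so a change in the number of cells of a type and a change in RNA per cell cannot be told apart.

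The stretch of DNA just before the start of Rarb is the textbook example of a retinoic acid response element, and it is shown here with 2 members whose levels varied widely between lines. In the RefSeq promoter table (GRCm38.p6), 7 of the 9 genes had entries, with 14 windows from 250 bases before to 50 bases after a start. Crabp2 and Aldh1a3 had none, so the matches counted below do not cover them. The binding hexamers searched on both strands were AGGTCA, then GGGTCA, then AGTTCA and also GGTTCA, alone and as direct repeats spaced by 1, 2 or 5 bases (DR1, DR2 and DR5). GGGCGG (the GC box) and TATAAA (the TATA box) were searched as well. In the lines below, which give the 250 bases before the start on the gene's strand, capitals mark the hexamers in Rarb (chr14:16575477-16575726, minus strand). They mark GC boxes, read on either strand, in Crabp1 (chr9:54764498-54764747, plus strand) and the TATA box in Cyp26b1 (chr6:84593811-84594060, minus strand).
Rarb: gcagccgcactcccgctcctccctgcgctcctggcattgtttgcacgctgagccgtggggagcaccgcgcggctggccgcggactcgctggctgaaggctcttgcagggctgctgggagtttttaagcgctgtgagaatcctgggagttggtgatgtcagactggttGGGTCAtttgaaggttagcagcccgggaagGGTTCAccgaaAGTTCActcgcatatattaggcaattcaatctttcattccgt
Crabp1: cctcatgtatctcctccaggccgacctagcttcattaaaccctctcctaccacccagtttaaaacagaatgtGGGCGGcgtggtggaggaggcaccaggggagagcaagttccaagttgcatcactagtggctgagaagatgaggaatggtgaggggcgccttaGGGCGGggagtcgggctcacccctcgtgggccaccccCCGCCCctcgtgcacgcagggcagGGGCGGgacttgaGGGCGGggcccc
Cyp26b1: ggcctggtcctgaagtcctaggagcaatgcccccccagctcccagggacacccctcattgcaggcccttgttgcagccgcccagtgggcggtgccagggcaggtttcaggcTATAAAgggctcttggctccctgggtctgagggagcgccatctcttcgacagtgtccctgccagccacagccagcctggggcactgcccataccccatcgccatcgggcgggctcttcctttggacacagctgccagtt

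Rarb held 3 hexamers, and the last 2 formed a DR5, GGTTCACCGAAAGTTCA, from position -53 to -37 counted from the start. It was the only DR5 among the 14 windows, and 0.0974% of all 32851 windows in the table held one. No member window held a DR1 or DR2, against 0.222% and 0.268% of all windows. At least 1 hexamer was found in 5 of the 14 windows, against 43.7% of all windows, and none lay in the windows of Crabp1, Cyp26b1 or Dhrs3. At least 1 GC box was found in 7 of the 14 windows, against 35.7% of all windows. Crabp1 held 5, and Cyp26b1 held 3 that are not marked above. Some windows of Rara and of Dhrs3 overlap, and 2 of Rara hold the same 4 GC boxes, so the 14 are not separate stretches. Cyp26b1 held the only TATAAA among the member windows, at position -139 to -134, against 13.6% of all windows. A match is a description of the letters and does not show that a factor binds there.

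Per kilobase of exon, Rarg was the most abundant of the member receptors in every line, and Rarb was close to absent. Exon lengths were taken from GENCODE M21 and may differ from the lengths the submitters counted over. On this scale Rarg, the main RAR of skin keratinocytes, averaged 46.9 ± 10.4 CPM per kb in mutant (n = 3), 43.7 ± 15.4 CPM per kb in null (n = 2) and 46.1 ± 4.07 CPM per kb in WT lines (n = 2, SD). Rxra, a shared partner of the RARs, came next among the member receptors. It had 20.4 ± 2.60, 25.2 ± 11.7 and 36.2 ± 4.79 CPM per kb in mutant, null and WT lines. Rxrb, another RXR gene that is not a member, had 21.19 ± 3.255, 24.09 ± 0.06623 and 20.89 ± 1.653 CPM per kb in these groups. In mutant 1, mutant 2 and null 3 Rxrb stood above Rxra. The spreads of Rarg and Rxra overlapped in null lines. Rara, the broadly expressed RAR, was lower than both in every library, at 6.31 to 7.89 CPM per kb. Rarb was below 0.4 CPM per kb in every library.

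The binding proteins and enzymes took different places in this order in mutant and WT lines. In mutant lines Crabp2, at 44.2 ± 10.9 CPM per kb, stood beside Rarg within its spread, whereas in WT lines it stood at 5.25 ± 2.93 CPM per kb, beside Rara. Aldh1a3 and Rarb were the lowest in mutant lines, at 0.0285 ± 0.0299 and 0.129 ± 0.132 CPM per kb, and their spreads overlapped. In WT lines it was at 1.13 ± 0.217 CPM per kb, between Dhrs3 at 1.46 ± 0.218 and Cyp26b1 at 0.794 ± 0.243 CPM per kb, and these neighbours did not differ beyond their summed spreads. Null lines placed Crabp2 at 13.3 ± 9.84 and Aldh1a3 at 0.534 ± 0.299 CPM per kb.

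**Figure D1:**
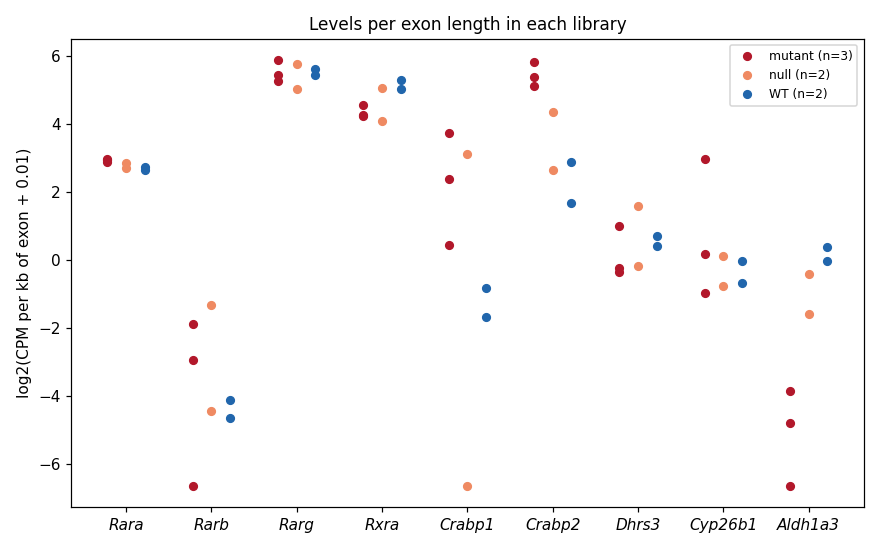
Level of each gene per kilobase of exon, as log2(CPM per kb + 0.01), with 1 point per library for 3 mutant, 2 null and 2 WT lines; points at the bottom are libraries with no count. Rarg is the highest of the receptors shown in each line, and Crabp2 and Aldh1a3 are separated between mutant and WT lines in opposite directions.

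Of the 4 receptor genes, none was called between any groups, that is, none had a Benjamini-Hochberg adjusted p under 0.05 in edgeR over the 13768 genes tested. Rarg had 147, 199 and 131 CPM in mutant 1, 2 and 3, 185 and 111 CPM in null 1 and 3, and 147 and 166 CPM in WT 1 and 2. The groups overlapped fully, and the log2 fold change of mutant against WT was 0.02 (SE 0.273, adjusted p = 0.962), with a value below 0 under upper-quartile scaling (-0.012). Rara was the steadiest member, with a highest library only 1.25 times the lowest. It had 33.0, 31.6 and 33.8 CPM in mutant, 28.1 and 30.6 CPM in null, and 27.0 and 28.7 CPM in WT libraries. All mutant libraries lay above all others, but the difference from WT was small (log2 fold change 0.23, SE 0.165, adjusted p = 0.366).

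Rxra had 97.9, 95.4 and 120 CPM in mutant libraries, 171 and 86.8 CPM in null libraries, and 167 and 202 CPM in WT libraries. Every mutant library was below both WT libraries, whereas null 1 was at the WT level and null 3 below all mutant libraries. The log2 fold change of mutant against WT was -0.82 (SE 0.288, adjusted p = 0.115), so Rxra was not called, although DESeq2 gave an adjusted p of 0.0355 and a fit of only the mutant and WT libraries 0.0386. Against WT, null lines differed by -0.52 (SE 0.321, adjusted p = 0.389).

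Rarb, the receptor gene with the DR5 shown above, had at most 44 reads in any library. Its counts were 44, 0 and 18 in mutant 1, 2 and 3, 4 and 35 in null 1 and 3, and 3 and 2 in WT 1 and 2. These are 0.895, 0 and 0.413 CPM in mutant, 0.122 and 1.33 CPM in null, and 0.102 and 0.162 CPM in WT libraries. Mutant 1, mutant 3 and null 3 were the higher libraries, and these are the 3 libraries with high fibroblast markers. The part of any such cells in the level of Rarb was not tested. For mutant 2, a count of 0 allows up to 0.0712 CPM (3 counts, counting error only). The log2 fold changes against WT were 1.75 in mutant (SE 1.87, adjusted p = 0.55) and 2.46 in null lines (SE 2.01, adjusted p = 0.512), and the value for null lines turned to -0.067 without null 3. In GENCODE M21, exons of Rarb overlap 1793 bases of exons of Top2b on the other strand, and the strand setting of the deposited counts is not given in the sources used here.

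**Figure D2:**
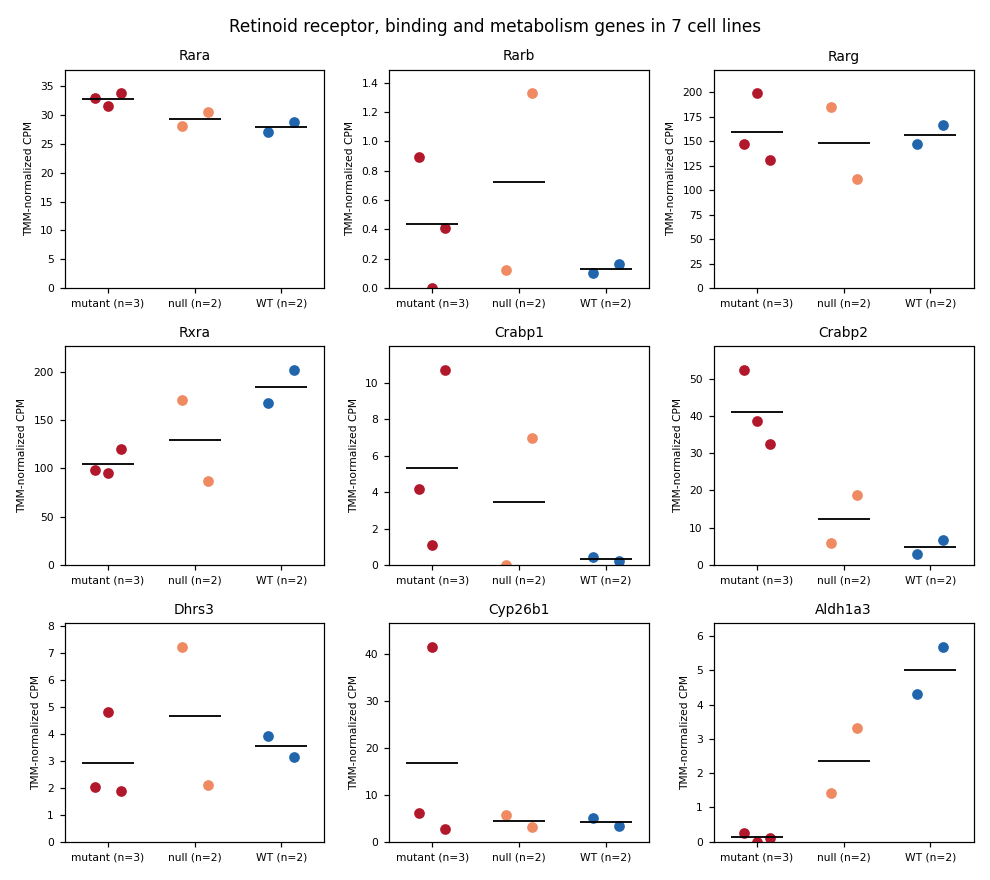
TMM-normalized CPM of the 9 genes in each library (points) with group means (lines), for 3 mutant, 2 null and 2 WT lines; each panel has its own axis from 0. The mutant points lie above both other groups for Crabp2 and below them for Aldh1a3, and a single line, mutant 2 at 41.6 CPM, stands apart for Cyp26b1.

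Crabp2, which delivers retinoic acid to the RARs, rose in mutant lines and was the only member called against WT. Its level was 52.3, 38.6 and 32.5 CPM in mutant 1, 2 and 3, 5.87 and 18.8 CPM in null 1 and 3, and 2.96 and 6.82 CPM in WT 1 and 2. The lowest mutant library was above the highest of the other 4, and null 1 lay between both WT libraries. The fold change of mutant against WT was 8.52 (log2 3.09, SE 0.641, edgeR adjusted p = 0.0415). The call was lost when any one mutant or WT library was left out, with adjusted p-values of 0.0547 to 0.202 and log2 fold changes of 2.60 to 3.80, and with limma-voom (adjusted p = 0.0515). Crabp2 was highest in mutant 1, where fibroblast markers were highest, and higher in null 3 than in null 1, as those markers were, but it was higher in mutant 2, with few such markers, than in mutant 3. The part of any such cells in the level of Crabp2 was not tested.

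That 1 of 9 members was called in mutant against WT stands beside 7.42% of all genes tested, 3.3% called higher and 4.13% called lower. Libraries of the 2 groups did not overlap for 5 members, with Rara, Crabp1 and Crabp2 above and Rxra and Aldh1a3 below WT, beside 52.6% of all genes (26.9% above and 25.7% below). The median log2 fold change of the members was 0.234, and that of all genes 0.0834.

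Crabp1, the cytoplasmic retinoic acid binding protein, varied widely between lines of one group. It was at 4.15, 1.09 and 10.7 CPM in mutant 1, 2 and 3, at 0 and 6.95 CPM in null 1 and 3, and at 0.442 and 0.244 CPM in WT 1 and 2. All mutant libraries lay above WT, while the null libraries lay on either side of them, and a count of 0 in null 1 allows up to 0.0913 CPM. The log2 fold change of mutant against WT was 3.90 (SE 2.16, adjusted p = 0.263) and that of null against WT 3.29 (SE 2.18, adjusted p = 0.418). The 3 highest libraries were again those with high fibroblast markers, mutant 1, mutant 3 and null 3. The part of any such cells in the result was not tested. Mutant 2, with a fibroblast marker sum of 9.78 CPM, had 46 Crabp1 counts, and WT 1 had 13.

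**Figure D3:**
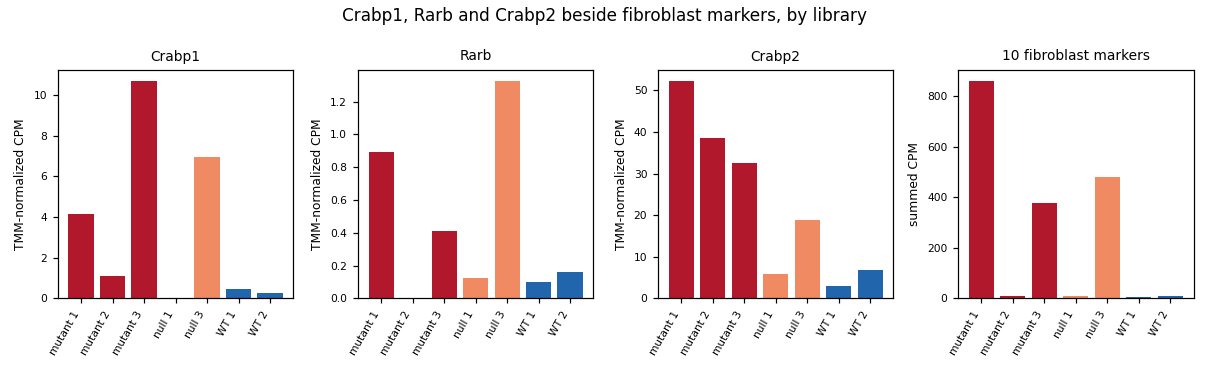
CPM of Crabp1, Rarb and Crabp2 and the summed CPM of 10 fibroblast markers in each library, with mutant lines at the left, then null and WT lines. Crabp1 and Rarb are highest in mutant 1, mutant 3 and null 3, where the marker sum is 861.6, 376.1 and 481.2 CPM, whereas Crabp2 is also high in mutant 2, where it is 9.78 CPM.

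Aldh1a3, an enzyme that makes retinoic acid from retinal, was close to absent from mutant lines, with 13, 0 and 5 reads in mutant 1, 2 and 3. Its level was 0.264, 0 and 0.115 CPM in these, 1.43 and 3.30 CPM in null 1 and 3, and 4.32 and 5.68 CPM in WT 1 and 2. No libraries of different groups overlapped: the mutant lines were lowest, the null lines between, and the WT lines highest. The log2 fold change of mutant against WT was -5.25 (SE 1.25) with an adjusted p of 0.0536, just outside the threshold. DESeq2 gave 0.000111, limma-voom 0.0413 and the newer form of edgeR's fit 0.0137. Of 15 alternative settings, 6 called Aldh1a3. In edgeR it was not called with RLE or upper-quartile scaling (adjusted p = 0.0552 and 0.056) or with the title number as a block (0.171). Nor was it called without mutant 2 or mutant 3 (edgeR adjusted p = 0.0693 and 0.152). It was also not called when either WT library was left out (log2 fold change -5.43 without WT 1 and -5.05 without WT 2). The summed epithelial markers, mostly Krt5 and Krt14, were also lower in every mutant and null library than in WT, and their part in the level of Aldh1a3 was not tested. Null against WT was -1.08 (SE 1.24, adjusted p = 0.648).

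Dhrs3, which reduces retinal back to retinol, was low in all groups. It had 2.03, 4.82 and 1.88 CPM in mutant, 7.24 and 2.13 CPM in null, and 3.91 and 3.17 CPM in WT libraries. The null libraries lay on either side of both WT libraries, mutant 1 and mutant 3 lay below all others, and no comparison was called (adjusted p = 0.804 for mutant and 0.793 for null against WT). Cyp26b1, which degrades retinoic acid, was set apart in a single line. It stood at 6.06, 41.6 and 2.68 CPM in mutant 1, 2 and 3, at 5.72 and 3.08 CPM in null 1 and 3, and at 5.17 and 3.33 CPM in WT 1 and 2. Apart from mutant 2, all libraries lay within 2.68 to 6.06 CPM. The log2 fold change of mutant against WT was 1.97 (SE 1.16, adjusted p = 0.287), and without mutant 2 it was 0.02.

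In null against WT none of the 9 members was called by edgeR, beside 0.138% of all genes (0.0726% higher and 0.0654% lower). None had an unadjusted p under 0.05, beside 2777 genes of the 13768. DESeq2 and limma-voom also called none of them, beside 1527 genes with DESeq2 and 0 with limma-voom. Aldh1a3 was the only member whose null and WT libraries did not overlap, below WT, beside 56.1% of all genes (29.1% above and 27.1% below). Crabp2 had a log2 difference of 1.35 between null and WT (SE 0.632, adjusted p = 0.283).

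In mutant against null lines, which share the 4NQO label, no member was called by edgeR, beside 0% of all genes. At an unadjusted p under 0.05 there were 2 members, Crabp2 and Aldh1a3, and 1924 genes of the 13768. DESeq2 called 604 genes and 1 member, Aldh1a3 (adjusted p = 0.0126), and limma-voom called none. Crabp2 averaged 41.2 ± 10.1 CPM across the 3 mutant lines, against 12.3 ± 9.16 CPM across the 2 null lines (SD), 1.74 apart on the log2 scale (SE 0.592, adjusted p = 0.306). Aldh1a3 averaged 0.126 ± 0.133 CPM in mutant against 2.37 ± 1.32 CPM in null lines, and its log2 fold change was -4.17 (SE 1.2, adjusted p = 0.287). Libraries did not overlap for these 2 members and Rara, with Crabp2 and Rara above and Aldh1a3 below null, beside 31.1% of all genes (16% above and 15.1% below). The comparisons are not independent, since each pair of them shares the libraries of 1 group.

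**Figure D4:**
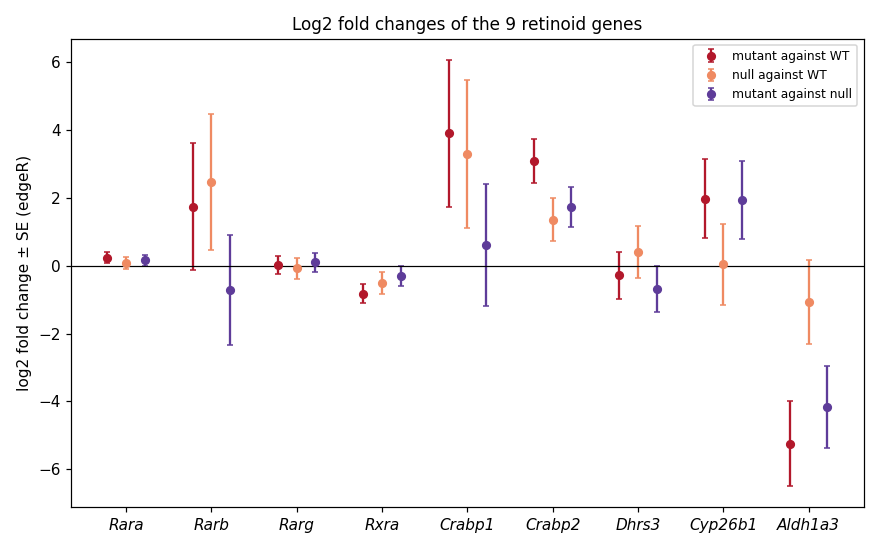
Log2 fold change of each gene in mutant against WT, null against WT and mutant against null lines, with bars of 1 SE from edgeR. Crabp2 at 3.09 in mutant against WT is the only value that passed the adjusted threshold, and the widest bars belong to Rarb and Crabp1.

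Among the other genes of the pathway, 62 were found in the table and 48 passed the filter. In mutant against WT, 1 was called higher and 2 lower, beside 3.3% and 4.13% of all genes, with a median log2 fold change of -0.172, beside 0.0834 for all genes. Since no gene of the table was called without WT 1 or without WT 2, these 3 calls end there too. The gene called higher was Adh7, an alcohol dehydrogenase active on retinol in the upper digestive tract. It had 26.8, 82.8 and 85.0 CPM in mutant, 33.1 and 17.9 CPM in null, and 2.72 and 5.36 CPM in WT libraries. Both 4NQO groups lay above WT, with log2 fold changes of 4.03 in mutant (SE 0.685, adjusted p = 0.0297) and 2.68 in null lines (SE 0.67, adjusted p = 0.129). It was the only called gene of 16 tested for oxidation and reduction of retinol and retinal.

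Ppard encodes a nuclear receptor that also pairs with Rxra, and it was the only called gene among 9 receptor partners and coregulators. It fell to 148, 142 and 134 CPM in mutant libraries, with 185 and 121 CPM in null libraries, against 302 and 300 CPM in WT libraries. The log2 fold change was -1.09 in mutant (SE 0.196, adjusted p = 0.0326) and -0.97 in null lines (SE 0.22, adjusted p = 0.114). Krt13, a keratin of internal squamous epithelia that retinoic acid induces in cultured keratinocytes, was the only called gene of 12 tested in the induced list. It had 8.71, 1.45 and 2.96 CPM in mutant, 14.8 and 47.5 CPM in null, and 85.9 and 173 CPM in WT libraries, with a log2 fold change of -4.88 in mutant against WT (SE 0.871, adjusted p = 0.0321). The groups did not overlap, and the part of the epithelial markers, whose sum, mostly Krt5 and Krt14, was also lower in mutant and null than in WT libraries, was not tested.

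No gene of the uptake and storage list or of the short list of genes repressed by retinoic acid was called in mutant against WT. Of 8 tested for uptake, binding and storage, those with the smallest p were Rbp2, a retinol binding protein with a mean of 0.192 ± 0.276 CPM over mutant lines against 2.29 ± 0.207 CPM over WT lines (SD, adjusted p = 0.151), and Bco2, a carotenoid oxygenase (adjusted p = 0.21). Of 3 genes tested that retinoic acid is known to repress in keratinocytes, Tgm1, the envelope cross-linking enzyme, stood at -3.93 on the log2 scale (SE 1.29, adjusted p = 0.101) and Lor, the envelope protein loricrin, -1.62 (SE 1.1, adjusted p = 0.346). Krt10, a keratin of the cornifying layers named after its value was seen, had a log2 value of -0.04 (SE 0.55, adjusted p = 0.964), and its libraries overlapped.

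In null against WT, none of the 48 was called by edgeR, with a median of -0.104 beside 0.0569 for all genes. Of the 48, 5 had an unadjusted p under 0.05, beside 2777 of all 13768 genes. Genes with the smallest p-values in their lists included Stra6, Rbp2, Adh7, Dhrs4, Ppard, Meis2, Krt19, Tgm1 and Krt10, with adjusted p-values of 0.114 or more. In mutant against null none was called by edgeR either, with a median of -0.13 beside 0.0152. An unadjusted p under 0.05 was found for 8 of the 48, beside 1924 of all 13768 genes. Rdh10, which oxidises retinol to retinal, had 17.2, 19.5 and 28.7 CPM in mutant libraries, against 51.5 and 43.6 CPM in null libraries (log2 fold change -1.13, SE 0.258, adjusted p = 0.264). Meis2, a homeobox gene of the induced list, averaged 31.6 ± 0.799 CPM over mutant lines against 14.7 ± 3.96 CPM over null lines (SD, adjusted p = 0.258). Others with the smallest p in their lists included Stra6, Bco2, Adh7, Nrip1, Krt13, Lor and Tgm1, with adjusted p-values of 0.287 or more.

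Several pathway genes chosen after their values were seen complete the set. The other Cyp26 genes were nearly silent, with no count for Cyp26a1 in any library, and Lrat, which stores retinol as esters, had none either. A count of 0 allows at most 0.244 CPM in WT 2, the shallowest library, and less in the others. Aldh1a1, another retinal dehydrogenase, was at 2.77, 0.0237 and 0.642 CPM in mutant, 1.28 and 14.5 CPM in null, and 1.26 and 1.79 CPM in WT libraries. Aldh1a2 was at most 1.29 CPM, in null 3. It had no count in mutant 2, mutant 3 and WT 2.

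**Figure D5:**
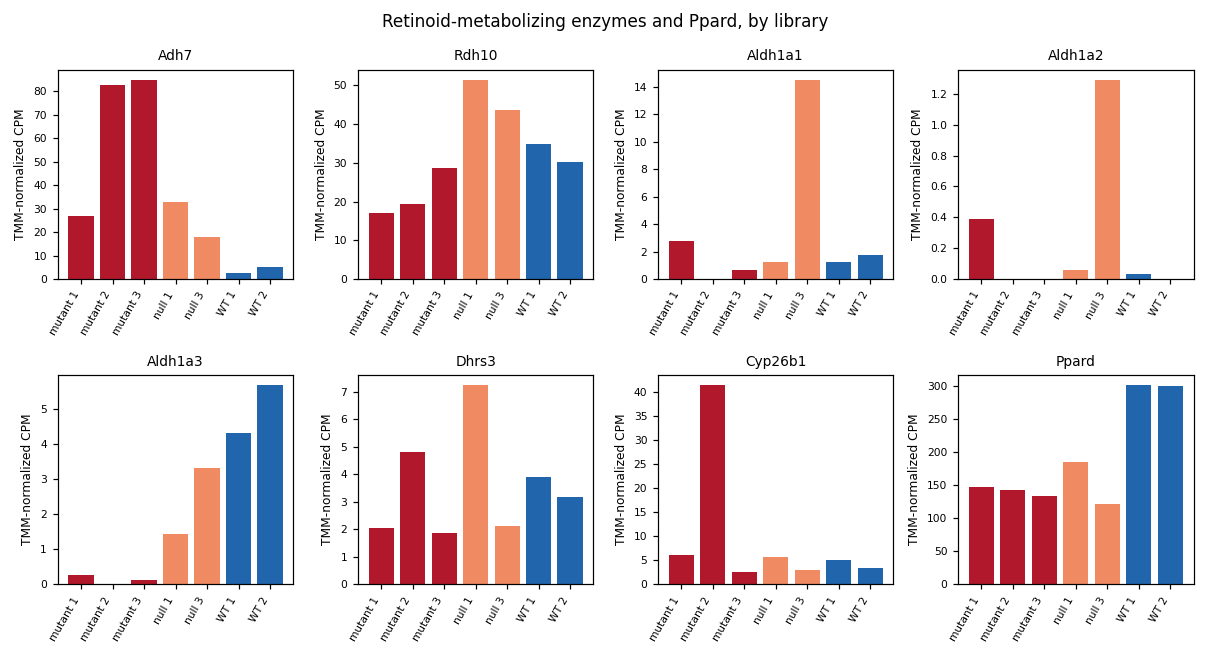
TMM-normalized CPM of 7 retinoid-metabolizing enzymes and of Ppard in each library, with mutant lines at the left, then null and WT lines, each panel with its own axis from 0. Adh7 is higher and Ppard lower in every 4NQO line than in both WT lines, Aldh1a3 is near 0 in mutant lines, and Cyp26b1 is high in mutant 2 alone.

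The genes most alike in pattern were found by the Pearson correlation of log2 CPM over the 7 libraries, among about 10140 genes with a mean of at least 5 CPM. These values describe patterns over the same 7 libraries, which share their groups and depth. Crabp2 was most like Rpa2, Fmnl3 and Agpat4 (r = 0.993, 0.993 and 0.985), and Aldh1a3 was most like Cnnm4, Pigt and Sdc1 (0.983, 0.976 and 0.976). Crabp1 was most like Rras, BC030336 and Akap13 (0.98, 0.975 and 0.972), and Rarb most like Cask, Plxnd1 and Adam19 (0.974, 0.968 and 0.962). Cyp26b1, led by 1 library, was most like Sufu, Mogs and B3galt4 (0.985, 0.949 and 0.946). Rxra was most like Ube2z, Gtf2e2 and Lactb2 (0.99, 0.983 and 0.98), Rara like Robo2, Igfbp4 and Csrp2 (0.98, 0.979 and 0.979), Rarg like Crocc, Ngrn and Ipo8 (0.966, 0.961 and 0.958), and Dhrs3 like Ring1, Cdnf and Sirt5 (0.988, 0.962 and 0.959).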

How the data were processed

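Libraries were made with a strand-specific kit for messenger RNA, per the labels' protocols. The authors deposited raw counts per gene name in one table. STAR 2.5.1b and build mm9 were used, per the submitters' processing notes; how genes were counted, with which annotation and strand option, is not given in the sources used here. The table's 92 spike-in names, with 0 counts, were left out, while 27 names turned into dates stayed in the tests but are never named.

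Counts were tested in R 4.3.3 with edgeR 4.0.16 (quasi-likelihood F test, TMM factors, default filter by group, all 7 libraries in one fit, Benjamini-Hochberg adjustment over 13768 genes, threshold 0.05). The genes tested took 99.95% or more of the counts in every library. Each SE is the absolute log2 fold change over the square root of F. The fit was run on simulated counts with less spread between replicates than these data, whose common biological coefficient of variation was 0.485. That run therefore gives no error rate for the calls made here. Replicate libraries differed beyond sampling noise (chi-square over its degrees of freedom, 52.95 to 239.9). Floors are 3 counts and cover counting error only. Exon lengths came from GENCODE M21 and promoters from RefSeq, both on GRCm38. Older names were matched through RefSeq synonyms, and Flg, of the repressed list, was not analysed here.

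The members and lists were chosen with earlier results of these data known. Named pathway genes were the called ones of each list, at most 4, or else the 2 with the smallest p; some of these are not reported here. Other settings were DESeq2 1.42.0, limma-voom (limma 3.58.1), the newer quasi-likelihood form, scaling by RLE or by upper quartile, a filter at 5 CPM in at least 2 libraries or none, fits of only the groups compared, the title number as a block, and each library left out in turn.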

Additional observations from a re-analysis of the deposited data

How the results depend on the processing

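Of 9 members, edgeR called 1 in mutant against WT, and the count was 3 with DESeq2 and with only the groups compared, 2 with the newer quasi-likelihood form and with no filter, 0 with a replicate block, and 0 to 2 when single libraries were left out. The further calls were Rxra and Aldh1a3. In mutant against null, DESeq2 called 1. Over all genes, mutant against WT gave 1022 calls, 3187 with DESeq2, 0 with a replicate block and 0 to 1420 with libraries left out; without WT 1 or WT 2 there were 0, without mutant 2 37 and without mutant 3 6. Null against WT gave 19, 1527 with DESeq2, 0 with limma-voom, 58 with the newer form, 77 with no filter, 0 with a replicate block and 0 to 55 with libraries left out. Mutant against null gave 0, 604 with DESeq2, 2 with no filter, 1 with RLE or upper-quartile factors, the newer form or the 5 CPM filter, and 0 to 22 with libraries left out.

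Members changed sign only where they were not called. With upper-quartile factors Rarg was at -0.012 in mutant against WT. With limma-voom Crabp1 was at -0.50 and Cyp26b1 at -0.043 in null against WT. With a replicate block Dhrs3 was at 0.048 in mutant against WT, Rarb at -0.17, Rarg at 0.23 and Crabp1 at -1.28 in null against WT, and Rarb at 0.24 and Rarg at -0.032 in mutant against null. With single libraries left out, log2 fold changes ran from -0.19 to 0.12 for Rarg and -0.88 to -0.07 for Dhrs3 in mutant against WT. In null against WT they ran from -0.067 to 3.34 for Rarb, -0.49 to 0.24 for Rarg, -6.64 to 4.28 for Crabp1, -0.74 to 1.03 for Dhrs3 and -0.48 to 0.42 for Cyp26b1. In mutant against null they ran from -1.79 to 1.82 for Rarb, -0.21 to 0.52 for Rarg, -0.71 to 0.27 for Rxra, -0.40 to 10.54 for Crabp1, -1.31 to 0.46 for Dhrs3 and -0.015 to 2.46 for Cyp26b1. Fits of Crabp1 against null 1 alone, which had no count, are no bound. The cause of these changes was not tested.

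Deviations from group means were correlated between libraries with the same title number. The values were -0.0184 for mutant 1 and WT 1, -0.0176 for mutant 2 and WT 2, and 0.138 for null 1 and WT 1. They were -0.405 for mutant 1 and null 1, and -0.0205 for mutant 3 and null 3. Libraries with different numbers ran from -0.415 (mutant 2 and null 3) to 0.415 (mutant 2 and null 1). In a group of 2 libraries the deviations mirror each other, so these correlations cannot settle whether the title numbers pair the samples. With the title numbers as a replicate block, Crabp2 in mutant against WT had an edgeR adjusted p of 0.149. Alternatives were run for the members and the counts of genes, and not for each other pathway gene; with no gene called under the block, those of Adh7, Ppard and Krt13 are lost there as well. A group left with 1 library is assumed to vary like the others. Rarb, Dhrs3 and Aldh1a3 were not tested under the 5 CPM filter. Among the other scalings, the shift of the median of all genes farthest from 0 was -0.0329 on the log2 scale. The depth of mutant 2 and null 1, the libraries with no count for a member, allows up to 0.0712 and 0.0913 CPM there.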
